A study of Mus musculus with 36 samples.

Results

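The genes described here are 8 enzymes of purine salvage and urate breakdown: Aprt, Hprt, Adk, Ada, Gda, Xdh, Uox and Urad. They were taken as the probe sets that the array's annotation pairs with exactly 1 of these symbols, and each of the 8 genes had 1 such probe set among 19938 genes in all. The probe sets are 10582390 for Aprt, 10599627 for Hprt, 10413086 for Adk, 10489391 for Ada, 10466659 for Gda, 10452815 for Xdh, 10496825 for Uox and 10535776 for Urad. Levels are log2(intensity + 16) of the deposited intensities, or linear intensities where stated. Of the 8 genes, 7 were bright enough to be tested among 13956 genes. Ada lay at a mean log2 level of 6.105, just under the filter at the 30th percentile of genes (6.11).

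The samples were whole livers of C57BL/6J mice, an inbred laboratory strain, killed at an age of 16 weeks. Mice on high fat diet, with 60% of calories from fat, were compared with mice on normal chow after 10 weeks of feeding. All were housed with 12 h of light per day and ate freely, and livers were taken every 4 h from ZT0 to ZT20 (Zeitgeber time, in hours after the lights come on). Each of the 12 groups of diet and time held 3 samples, with 1 array each. No label says whether the samples are separate animals beyond a number from 1 to 3, so p-values cover only how much such samples vary, which may be technical. The labels used here state neither sex nor what else the diets contained.

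Purine bases released from nucleotides have alternative fates in liver. In salvage, Aprt joins adenine, and Hprt joins hypoxanthine or guanine, to a ribose phosphate to remake a nucleotide, while Adk phosphorylates adenosine to AMP. On the route to waste, Ada turns adenosine into inosine, Gda turns guanine into xanthine, and Xdh oxidises hypoxanthine and xanthine to urate. In mice, unlike in humans, urate oxidase (Uox), a peroxisomal enzyme, oxidises urate, and Urah and then Urad carry the product on to allantoin, which is excreted.

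RefSeq promoter windows, from 250 bases before to 50 bases after a start site in GRCm38.p6, were found for 7 of the 8 genes. Those of Aprt and Hprt are shown as the pair of phosphoribosyltransferases, and those of Uox and Urad as the enzymes of urate breakdown, because in each pair 1 gene passed the test between diets and the other did not. Each reads 5′ to 3′ on the gene's own strand, and capitals mark matches to the GC box GGGCGG or its reverse complement. The windows lie at chr8:122576858-122577157 (minus strand), chrX:52987828-52988127 (plus strand), chr3:146596899-146597198 (plus strand) and chr5:147322391-147322690 (minus strand).
Aprt: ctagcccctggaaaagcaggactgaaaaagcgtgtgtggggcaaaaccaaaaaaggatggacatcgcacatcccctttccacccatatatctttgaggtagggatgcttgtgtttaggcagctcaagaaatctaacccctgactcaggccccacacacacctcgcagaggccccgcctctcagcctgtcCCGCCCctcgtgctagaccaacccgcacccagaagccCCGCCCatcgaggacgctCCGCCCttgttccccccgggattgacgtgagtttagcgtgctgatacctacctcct
Hprt: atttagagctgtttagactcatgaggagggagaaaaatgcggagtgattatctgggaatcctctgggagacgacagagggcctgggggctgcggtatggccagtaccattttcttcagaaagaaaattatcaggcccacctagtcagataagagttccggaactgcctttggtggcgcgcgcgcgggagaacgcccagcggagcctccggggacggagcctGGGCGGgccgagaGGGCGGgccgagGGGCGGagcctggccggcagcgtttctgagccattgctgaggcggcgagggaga
Uox: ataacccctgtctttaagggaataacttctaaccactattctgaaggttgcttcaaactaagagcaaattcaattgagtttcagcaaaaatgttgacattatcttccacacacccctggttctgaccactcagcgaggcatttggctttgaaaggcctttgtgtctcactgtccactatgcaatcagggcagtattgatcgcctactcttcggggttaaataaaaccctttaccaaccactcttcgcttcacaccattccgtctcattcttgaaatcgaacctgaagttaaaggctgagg
Urad: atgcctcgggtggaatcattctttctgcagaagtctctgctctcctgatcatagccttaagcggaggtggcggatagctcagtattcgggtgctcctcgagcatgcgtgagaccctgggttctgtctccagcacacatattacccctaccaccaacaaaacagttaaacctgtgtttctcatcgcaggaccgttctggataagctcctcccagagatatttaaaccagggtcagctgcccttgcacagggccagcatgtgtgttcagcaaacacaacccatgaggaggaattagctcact
The Aprt window held 3 GC boxes, beginning 61, 24 and 6 bases before the start site, and the Hprt window held 3, beginning 29, 16 and 4 bases before it. GC boxes were also found in both windows listed for Adk (4 in each) and in that of Ada (2), and none in those of Gda, Uox and Urad. The motif occurs in 35.7% of all 32851 promoter windows of this length. Searched on both strands in the same windows, the E-box CACGTG (7.15% of all windows), the D-box TTANGTAA (2.32%), the nuclear receptor core AGGTCA (16.3%) and TATAAA (13.6%) had no match in any window of these genes, and none of the 5 motifs contains another. The letters G and C made up 57.7% of the Aprt window, 61.0% of the Hprt window, 43.0% of the Uox window and 51.3% of the Urad window.

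Array medians of the intensity lay between 75.7 and 95.6, and log2 values correlated at 0.976 to 0.993 within groups. The number of arrays, 3 per group, limits the precision. The 7 hepatocyte markers checked were bright, with mean intensities of 3146 or more, and their summed intensity was 57628 to 66133 on high fat diet and 56493 to 67466 on chow. Over all tested genes, limma called 1571 higher and 1368 lower on high fat diet at an adjusted p under 0.05, averaged over the day. That is 53.5% higher, and median centring of the arrays made it 30.1%. Median centring used the median of all 35556 probe sets, 12146 of which had no listed gene. At ZT0 the share of higher calls was 47.3%, against 29.1% after quantile normalization and 10.8% after median centring, which moved the median of all genes there from 0.035 to -0.099 on the log2 scale. Median centring also gave 29.6% against 45.4% at ZT12, 33% against 47.1% at ZT16 and 71% against 60.7% at ZT20.

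Averaged over the day, Aprt and Urad fell on high fat diet, and Adk, Gda and Xdh rose by small amounts. These are 5 of the 7 tested genes, 3 higher and 2 lower, where 21.1% of all tested genes were called, 11.3% as higher and 9.80% as lower. The genes were chosen with earlier results of these data known, so the count is description only. The median difference was 0.03 over the 7 genes and 0.02 over all tested genes. Hprt and Uox did not pass the test. After median centring the calls of Adk, Gda and Xdh were lost (adjusted p = 0.104, 0.107 and 0.0643, limma), which leaves 3 called with Uox, at -0.11 and adjusted p = 0.0135. Median centring put the median difference of all tested genes at -0.023. Quantile normalization put it at -0.006 and left 5 of the 7 genes called. Without the 4 arrays of lowest quality weight (a setting added once the data had been seen), Gda lost its call (0.12, adjusted p = 0.0707). The plot of diet differences shows each gene's mean and its 6 times.

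**Figure D1:**
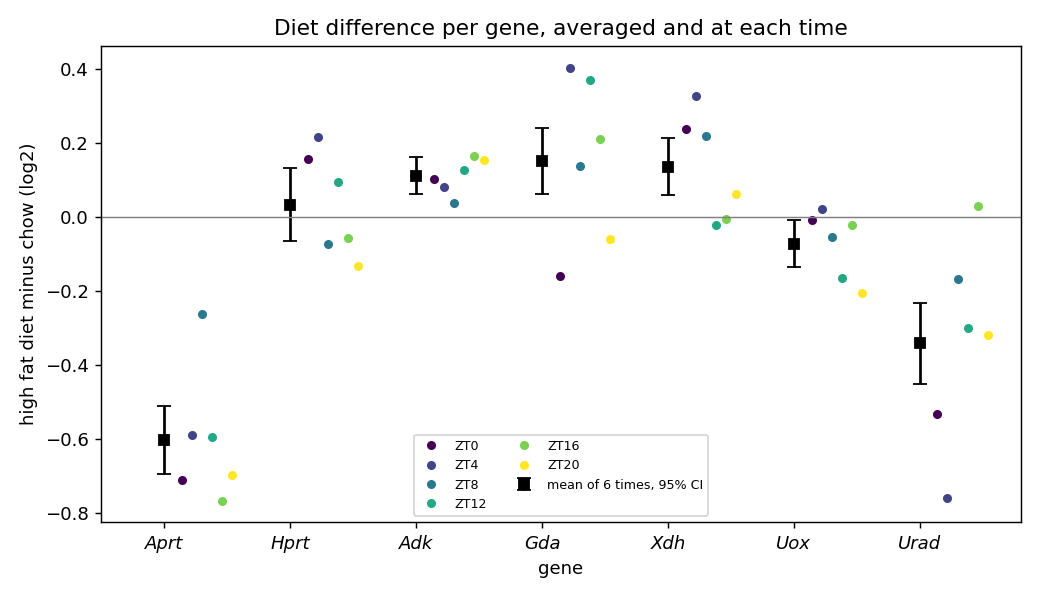
Difference between high fat diet and chow (log2) for the 7 tested genes. Squares are the mean over 6 times with a 95% confidence interval, and dots the difference at each time (3 samples per diet). Aprt is below 0 at each time, and Urad is lowest at ZT4 (-0.76) and near 0 at ZT16 (0.03).

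Among the salvage enzymes, Aprt showed the largest diet difference of the 7 genes. Its intensity in the 18 samples of each diet had a lowest value of 252, a median of 296 and a highest of 416 on high fat diet, against 372, 474 and 512 on chow. The log2 level averaged 8.29 ± 0.19 on high fat diet and 8.89 ± 0.13 on chow (SD, n = 18 each). The difference was -0.60 ± 0.045 (SE; 95% interval -0.70 to -0.51), a level of 0.658 of that on chow, with a limma adjusted p of 2.20e-11, lower at 6 of 6 times. Aprt had the 28th smallest p of all tested genes.

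The lower Aprt level was present by day and by night. At ZT0 the samples read 252, 272 and 294 on high fat diet and 477, 419 and 474 on chow, and at ZT4 255, 299 and 276 on high fat diet and 486, 420 and 372 on chow. The 3 samples of each diet did not overlap at either time. How often this holds over all genes was not counted, so here and below it is description only. At ZT8 they did overlap, with 360, 416 and 304 on high fat diet and 493, 384 and 424 on chow. At ZT12 the values were 367, 276 and 310 on high fat diet, against 507, 494 and 456 on chow. At ZT16 they were 301, 258 and 258 on high fat diet, against 461, 486 and 473 on chow, and at ZT20 307, 310 and 266 on high fat diet, against 512, 471 and 477 on chow. From ZT12 to ZT20 each sample on high fat diet was again below each sample on chow. Aprt fell at ZT0 (-0.71), ZT4 (-0.59), ZT12 (-0.60), ZT16 (-0.77) and ZT20 (-0.70), with limma adjusted p-values from 0.000126 to 0.00148. At ZT8 the difference was -0.26 ± 0.111 (SE), with an adjusted p of 0.427 and an interval of -0.49 to -0.035.

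Hprt, the other base phosphoribosyltransferase, did not pass the test. Its lowest, median and highest intensities were 592, 679 and 827 on high fat diet and 414, 684 and 734 on chow. At ZT0 each Hprt sample on high fat diet was above each on chow, without passing the test (limma adjusted p = 0.435). The average difference was 0.03 ± 0.048 (SE; 95% interval -0.064 to 0.13; limma adjusted p = 0.677), so the interval for Hprt lies wholly above that for Aprt. The 414 belongs to a single chow sample at ZT4, whose group mates read 659 and 656, and the ZT4 difference, which did not pass the test, was 0.22 with it and 0.000613 without it. Its array, chow ZT4 replicate 2, had the lowest quality weight of the 36 arrays (0.265).

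Adk, the adenosine kinase, was slightly higher on high fat diet. Its lowest, median and highest intensities were 4124, 4470 and 4861 on high fat diet and 3862, 4136 and 4359 on chow, so the diets overlapped. It rose by 0.11 ± 0.025 (SE), or 1.08-fold, with a limma adjusted p of 0.00112, and was higher at 6 of 6 times. No single time passed the test, although ZT20 did after quantile normalization (0.227, adjusted p = 0.0389) and ZT16 with array weights (0.197, adjusted p = 0.0153). The differences were largest at ZT16 (0.17, adjusted p = 0.177) and ZT20 (0.16, adjusted p = 0.218), where the 3 samples of each diet did not overlap, with 4552, 4838 and 4805 on high fat diet and 4343, 4192 and 4107 on chow at ZT16. Nor did they overlap at ZT12 (0.13, adjusted p = 0.25).

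Ada, which competes with Adk for adenosine, was dim. Its lowest, median and highest intensities were 41.4, 49.8 and 66.3 on high fat diet and 35.4, 58.0 and 68.2 on chow. When all 19938 genes were tested with no filter, Ada differed by -0.155 ± 0.050 (SE, limma adjusted p = 0.0342), a change that the offset of 16 understates at this level. The samples did not overlap at ZT4, ZT8 and ZT12, where high fat diet was lower, with 41.8, 46.4 and 51.2 on high fat diet against 56.2, 66.9 and 65.9 on chow at ZT4. At no single time did Ada pass the test, with adjusted p-values of 0.171 or more.

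Gda and Xdh, which feed xanthine and urate, were slightly higher on high fat diet. Gda had lowest, median and highest intensities of 223, 307 and 455 on high fat diet and 195, 281 and 391.6 on chow, a rise of 0.152 ± 0.044 (SE, 1.11-fold, limma adjusted p = 0.0117), higher at 4 of 6 times. At ZT4 Gda read 252, 283 and 314 on high fat diet and 226, 195 and 207 on chow, a rise of 0.41 (adjusted p = 0.0253). At ZT12 it read 430, 441 and 400 on high fat diet and 346, 290 and 337 on chow, a rise of 0.37 (adjusted p = 0.0357). The diets did not overlap at either time, nor at ZT16, which did not pass the test (0.21, adjusted p = 0.395). At ZT0 the sign was the other way, at -0.16 ± 0.107 (SE, adjusted p = 0.377). Gda's average call rested on ZT4 and ZT12, as without ZT4 it was 0.10 (adjusted p = 0.158) and without ZT12 0.11 (adjusted p = 0.135).

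Xdh had lowest, median and highest intensities of 1220, 1411 and 1693 on high fat diet and 1048, 1298 and 1713 on chow. It rose by 0.137 ± 0.038 (SE, 1.1-fold, limma adjusted p = 0.00872), higher at 4 of 6 times. At ZT0, ZT4 and ZT8 every sample on high fat diet was above every sample on chow. Xdh read 1452, 1271 and 1220 on high fat diet and 1147, 1117 and 1061 on chow at ZT0, and 1339, 1572 and 1390 on high fat diet and 1076, 1048 and 1296 on chow at ZT4. At ZT8 it read 1648, 1502 and 1569 on high fat diet and 1241, 1427 and 1384 on chow. The ZT4 rise of 0.33 passed the test (adjusted p = 0.0413), while the differences of 0.24 at ZT0 (adjusted p = 0.114) and 0.22 at ZT8 (adjusted p = 0.428) did not. At ZT12 and ZT16 the differences were -0.021 and -0.004, and without ZT0 and ZT4 the average was 0.064 (adjusted p = 0.476). Leaving out ZT4 alone gave 0.099 (adjusted p = 0.105), and leaving out ZT0 alone 0.117 (adjusted p = 0.0536).

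The ZT4 calls of Gda and Xdh, and the ZT12 call of Gda, were lost when single arrays of those times were left out. For Gda at ZT4, leaving out replicate 2 or 3 of either diet gave differences of 0.33 to 0.40 with adjusted p-values of 0.061 to 0.147. For Gda at ZT12, leaving out any array of that time other than replicate 1 on chow gave 0.30 to 0.41 with adjusted p-values of 0.0553 to 0.226. For Xdh at ZT4, leaving out any array of that time other than replicate 3 on chow gave 0.26 to 0.38 with adjusted p-values of 0.0579 to 0.204. The same 3 calls were lost with median centring (adjusted p = 0.0774 for Gda at ZT4, 0.129 for Gda at ZT12 and 0.066 for Xdh at ZT4) and with only the 6 arrays of that time (0.12, 0.0543 and 0.224 in the same order). With no filter on dim genes Gda at ZT12 (0.0532) and Xdh at ZT4 (0.0631) were lost, and without the 4 arrays of lowest weight Gda (0.109) and Xdh (0.188) at ZT4. These 4 include chow ZT4 replicate 2, which had the lowest Gda and Xdh readings of its group. Without that array alone, the limma adjusted p-values at ZT4 were 0.128 for Gda and 0.204 for Xdh.

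At the urate end of the route Urad passed the test and Uox did not. Uox had lowest, median and highest intensities of 4314, 5001 and 5910 on high fat diet and 4304, 5229 and 6183 on chow. Its difference of -0.072 ± 0.031 (SE; 95% interval -0.135 to -0.008; limma adjusted p = 0.102) did not pass the test. At ZT12 each Uox sample on high fat diet was below each on chow, without passing the test (-0.16, adjusted p = 0.244). Urad fell by 0.34 ± 0.054 (SE; 95% interval -0.45 to -0.23), to 0.789 of its chow level, with an adjusted p of 2.17e-05 and a lower value at 5 of 6 times. Its lowest, median and highest intensities were 707, 1380 and 1846 on high fat diet and 1543, 1718 and 1953 on chow. The interval for Urad lies wholly below that for Uox. Urah, the enzyme between them, stood at -0.060 ± 0.035 (SE, adjusted p = 0.25).

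Urad had its largest estimated differences at ZT0 and ZT4. A limma F test of whether the difference varied with time did not call Urad (adjusted p = 0.159). At ZT0 it read 872, 1317 and 1399 on high fat diet and 1566, 1773 and 1770 on chow. At ZT4 it read 707, 1098 and 1026 on high fat diet and 1549, 1543 and 1661 on chow. Every sample on high fat diet was below every sample on chow at both times, and Urad fell by 0.53 at ZT0 and by 0.76 at ZT4 (limma adjusted p = 0.0154 and 0.000620). At ZT8 it read 1325, 1598 and 1362 on high fat diet and 1555, 1675 and 1570 on chow, and at ZT12 1539, 1316 and 1501 on high fat diet and 1828, 1762 and 1777 on chow. At ZT16 it read 1692, 1784 and 1846 on high fat diet and 1781, 1761 and 1668 on chow, and at ZT20 1499, 1493 and 1297 on high fat diet and 1953, 1826 and 1588 on chow. The diets overlapped at ZT8 and ZT16 and did not overlap at ZT12 and ZT20, and none of these 4 times passed the test (adjusted p = 0.212 to 0.97). Over these 4 times the average was -0.189 (adjusted p = 0.0612). At each of ZT0 and ZT4 the lowest high fat diet array was the one numbered 1, and these are separate arrays. Without that array of its own time, the ZT0 difference was -0.32 (adjusted p = 0.148) and the ZT4 difference -0.57 (adjusted p = 0.0148). The ZT0 call was also lost without chow replicate 2 (adjusted p = 0.0572) or 3 (0.0711). With only the 6 arrays of that time both calls were lost (adjusted p = 0.13 at ZT0 and 0.053 at ZT4), and with array weights the ZT20 difference passed (-0.457, adjusted p = 0.0226).

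Counted by time, 2 of the 7 genes passed at ZT0 (Aprt and Urad), where 7.12% of all tested genes did, 3.37% as higher and 3.75% as lower. At ZT4 4 passed (Aprt and Urad lower, Gda and Xdh higher), where 3.74% of all tested genes did, 2.33% as higher and 1.41% as lower. At ZT8 limma called 0, where 0.774% of all tested genes passed (0.279% higher and 0.494% lower), although Aprt and Xdh had unadjusted p-values of 0.0251 and 0.0254. At ZT12 Aprt and Gda passed, where 5.43% of all tested genes did (2.46% higher and 2.97% lower). Aprt alone of the 7 passed at ZT16, where 2.22% of all tested genes did (1.05% higher and 1.18% lower), and at ZT20, where 2.04% did (1.24% higher and 0.803% lower). An F test of whether the diet difference varied with time called 0 of the 7 genes (0.631% of all tested genes). Unadjusted p-values were 0.00354 for Gda, 0.00426 for Urad and 0.0417 for Aprt, and adjusted 0.152, 0.159 and 0.347. A difference between times in the diet response is thus not shown for any of them.

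**Figure D2:**
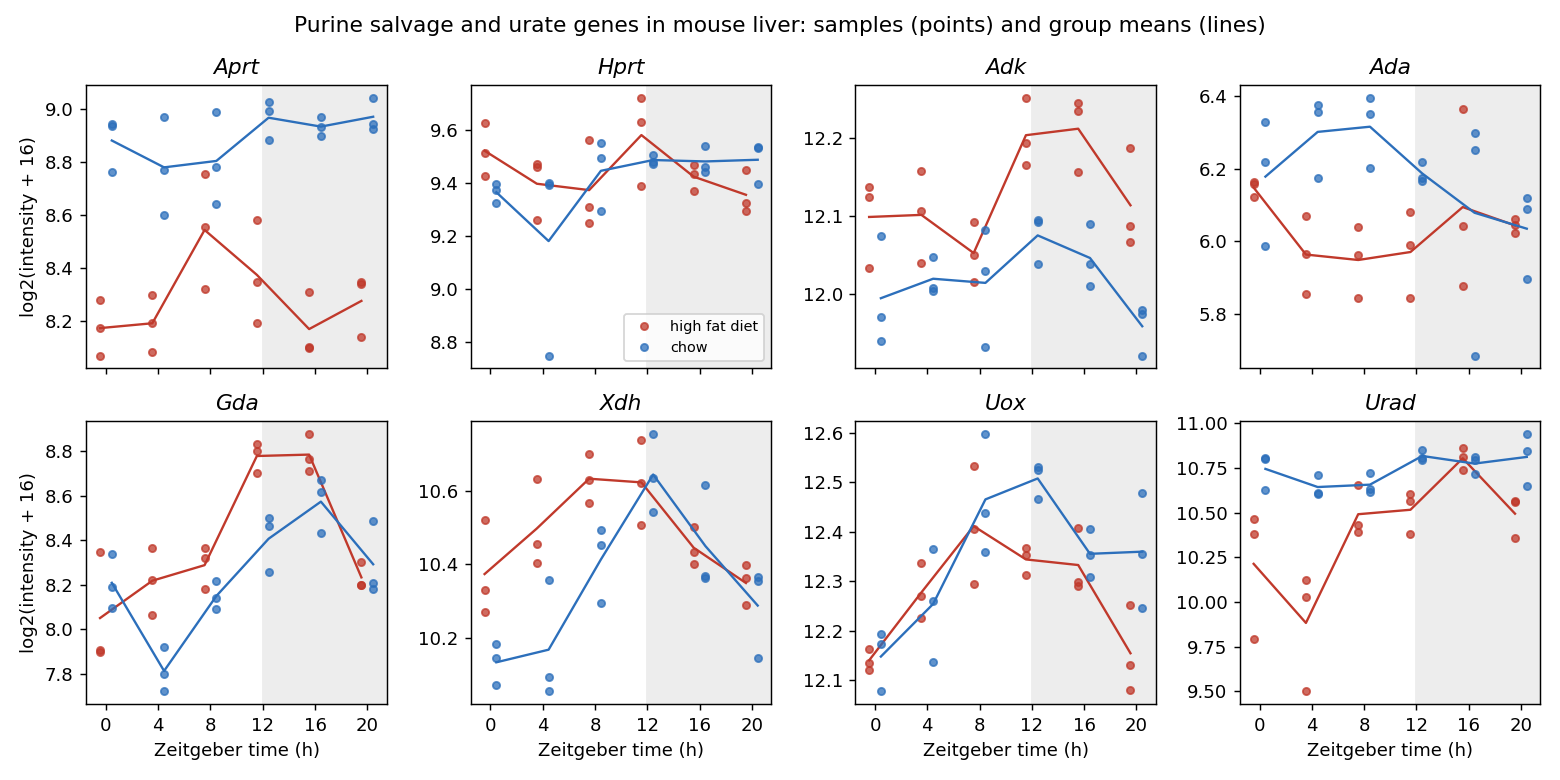
Level (log2(intensity + 16)) of the 8 genes against Zeitgeber time, with the dark phase shaded. Points are single samples (3 per diet and time), with high fat diet in red to the left and chow in blue to the right, and lines join group means. The group means of Aprt are lower on high fat diet at each time, though at ZT8 the samples overlap and the difference did not pass the test. Urad on high fat diet is lowest at ZT4 and level with chow at ZT16.

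A daily course was tested by fitting a 24 h cosine wave on each diet, whose amplitude is given in log2 units as its height above the mean. On high fat diet 4 of the 7 genes were called rhythmic, Gda, Xdh, Uox and Urad, where 11.0% of all tested genes were. On chow 3 were called, Gda, Xdh and Uox, where 20.6% of all tested genes were. The same 3 genes passed on both diets, as did 8.20% of all tested genes. The salvage genes Aprt, Hprt and Adk passed on neither diet, with adjusted p-values of 0.143, 0.947 and 0.201 on high fat diet and 0.315, 0.148 and 0.468 on chow. Their fitted amplitudes were between 0.027 and 0.137. After quantile normalization Adk passed on high fat diet, with an amplitude of 0.0953 (adjusted p = 0.0302), which makes 5 genes called there. With no filter Ada did not pass either (adjusted p = 0.617 on high fat diet and 0.0901 on chow).

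Gda had the highest fitted amplitude on both diets, though on high fat diet it was within its SE of that of Urad. Its mean intensities at ZT0 to ZT20 were 252, 283, 297, 424, 426 and 285 on high fat diet, against 281, 209, 268, 325, 366 and 299 on chow. The amplitude was 0.38 ± 0.051 (SE) on high fat diet, a peak 1.69-fold above the trough, and 0.31 ± 0.051 on chow, a peak 1.54-fold above it. Limma's adjusted p was 6.74e-06 on high fat diet and 9.31e-05 on chow. The fitted peak was at ZT13.54 ± 0.52 h on high fat diet and at ZT15.80 ± 0.63 h on chow (SE).

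Xdh and Uox were highest near the end of the light phase. Mean Xdh intensities at ZT0 to ZT20 were 1314, 1433, 1573, 1565, 1379 and 1290 on high fat diet and 1108, 1140, 1351, 1588, 1388 and 1237 on chow. The Xdh amplitude was 0.156 ± 0.036 (SE) on high fat diet (limma adjusted p = 0.00995) and 0.242 ± 0.036 on chow (2.33e-05), and the peak was at ZT9.43 ± 0.89 h on high fat diet and at ZT12.71 ± 0.57 h on chow. On high fat diet an F test over the 6 times that assumes no shape did not call Xdh (adjusted p = 0.075). Mean Uox intensities at the same times were 4496, 4950, 5442, 5182, 5145 and 4547 on high fat diet and 4523, 4878, 5651, 5808, 5224 and 5250 on chow. The Uox amplitude was 0.133 ± 0.032 (SE) on high fat diet (adjusted p = 0.0138) and 0.155 ± 0.032 on chow (0.002), and the peak was at ZT10.28 ± 0.93 h on high fat diet and at ZT11.97 ± 0.80 h on chow.

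Urad passed on high fat diet and not on chow. Its mean intensities at ZT0 to ZT20 were 1196, 944, 1429, 1452, 1774 and 1430 on high fat diet, against 1703, 1584, 1600, 1789, 1737 and 1789 on chow. The amplitude was 0.369 ± 0.058 (SE) on high fat diet (limma adjusted p = 8.26e-05, peak at ZT15.09 ± 0.60 h) and 0.085 ± 0.058 on chow (adjusted p = 0.551). The test of the difference between the diets did not call it, with an unadjusted p of 0.00374 and an adjusted p of 0.359.

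That test of a difference in the wave called 0 of the 7 genes, where it called 4 of all tested genes (0.0287%), and 1160 at an unadjusted p under 0.05. Beside Urad, the unadjusted p was 0.00431 for Xdh, 0.0222 for Gda and 0.0247 for Aprt, and the adjusted p 0.376, 0.532 and 0.537. The fitted peak on high fat diet minus that on chow was -3.28 ± 1.06 h (SE) for Xdh, -2.26 ± 0.81 h for Gda and -1.69 ± 1.22 h for Uox. The amplitude on high fat diet minus that on chow was 0.284 ± 0.082 (SE) for Urad, -0.087 ± 0.051 for Xdh and 0.066 ± 0.072 for Gda.

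**Figure D3:**
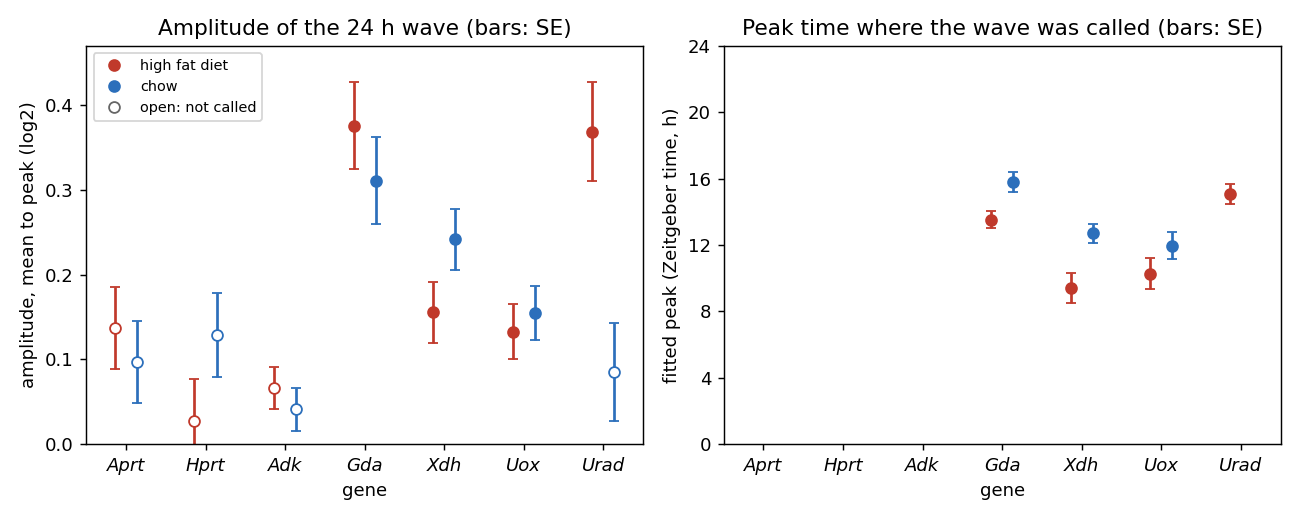
Amplitude of the fitted 24 h wave (log2, left) and its peak in Zeitgeber time (right) for the 7 tested genes, with high fat diet in red left of chow in blue and bars for the SE. Open points did not pass the test, and peaks are drawn only where the wave passed. Gda and Urad have the highest amplitudes on high fat diet (0.376 and 0.369), and the 3 genes that passed on both diets have peaks from ZT9.43 to ZT15.80.

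For each tested gene, the 2 genes with the most similar pattern were those with the highest Pearson correlation over the 12 group means, which share arrays and hold both the diet difference and the daily course. They were Mif (r = 0.971) and Ces2a (0.966) for Aprt, and Zfp236 (0.933) and Afmid (0.914) for Urad. For Uox they were Cry2 (0.958), a clock repressor, and Upp2 (0.944), a uridine phosphorylase. For Gda they were Vac14 (0.954) and Elovl6 (0.950), for Xdh Eci3 (0.925) and Slc16a12 (0.922), for Adk Plscr2 (0.944) and Slc25a20 (0.926), and for Hprt Bpifb9a (0.857) and H2bc18 (0.842). Among the 7 genes themselves the highest correlation over the 12 means was 0.677, between Aprt and Urad, and the lowest -0.765, between Aprt and Adk.

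Other genes of purine metabolism were taken from 5 lists with 66 symbols, of which 54 were tested. On average over the day 7 rose, 12 fell and 35 did not pass, with a median difference of -0.009. That is 13.0% higher and 22.2% lower, against 11.3% and 9.80% of all tested genes. The lists were chosen with earlier results of these data known, so these shares are description only. In de novo synthesis, which builds the purine ring step by step, 5 of 10 fell and 0 rose. Ppat, the enzyme of the first committed step, averaged 8.25 ± 0.27 on high fat diet and 8.58 ± 0.29 on chow (SD, n = 18 each). It fell by 0.328 ± 0.047 (SE, limma adjusted p = 4.31e-06), while Paics fell by 0.263, Atic by 0.174, Adsl by 0.126 and Gart by 0.097. Of 13 genes of the branches from IMP and of nucleotide interconversion 2 fell, Adssl1 by 0.241 (adjusted p = 0.000117) and Nme1 by 0.226, and 0 rose.

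Of 12 genes that break nucleotides down to bases or supply their substrates, 3 rose and 2 fell. Pnp, which releases hypoxanthine and guanine from their nucleosides, fell by 0.335 ± 0.056 (SE, limma adjusted p = 4.85e-05), and its near-identical neighbour Pnp2 was not analysed here, so shared signal is possible. Samhd1, a dNTP hydrolase, rose by 0.264 ± 0.043 (adjusted p = 2.94e-05). Pnp was rhythmic on both diets, with amplitudes of 0.464 on high fat diet (adjusted p = 2.17e-06) and 0.489 on chow (6.11e-07). A list of 8 tested genes held Urah and 7 genes that make or use the molybdenum cofactor, which Xdh needs, and of these 2 fell and 0 rose. The aldehyde oxidase gene Aox1 fell by 0.263 ± 0.060 (adjusted p = 0.00155), and Mocos, which adds the sulfur that Xdh and aldehyde oxidases need, by 0.192.

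Among 11 transporters of nucleosides, urate and organic anions 4 rose and 1 fell. Slc22a7, an organic anion transporter, averaged 9.47 ± 0.37 on high fat diet and 8.78 ± 0.39 on chow (SD, n = 18 each), a rise of 0.696 ± 0.104 (SE, 1.62-fold, limma adjusted p = 9.81e-06). Slc17a1, a phosphate and urate transporter, rose by 0.363, the urate exporter Abcg2 by 0.213 and Slc29a3 by 0.175, while Slc17a2 fell by 0.118 (adjusted p = 0.0412). Slc2a9, a urate transporter that carries urate into hepatocytes, stood at -0.030 ± 0.037 (adjusted p = 0.623).

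**Figure D4:**
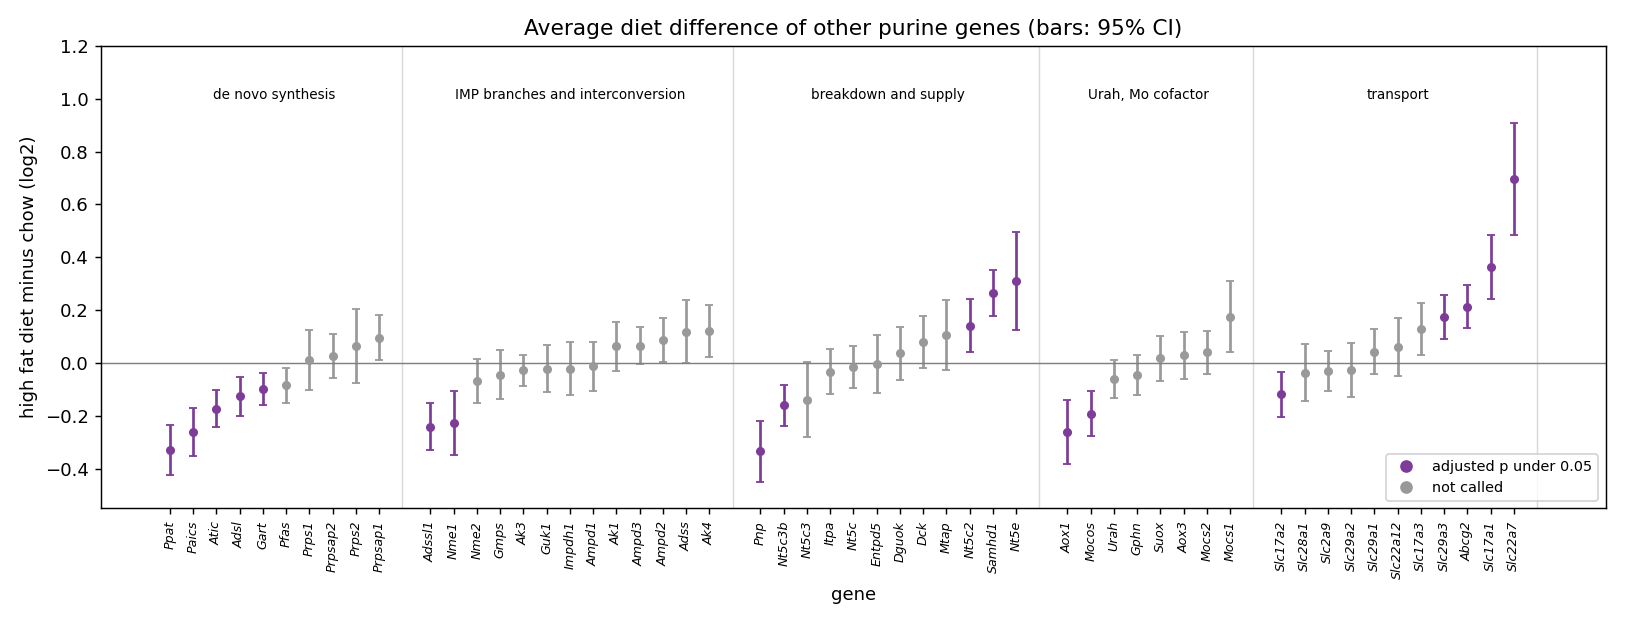
Average difference between high fat diet and chow (log2) with 95% confidence intervals for the 54 tested genes of the 5 other purine lists, sorted within each list. Filled purple points passed the test and grey points did not. De novo synthesis genes that passed lie below 0, and Slc22a7 is highest at 0.696.

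Whole liver holds other cell types, and in such samples fewer cells of a type and less RNA per cell cannot be told apart. Of 8 Kupffer cell and macrophage markers 7 rose on high fat diet and 0 fell, with a summed intensity of 2679 to 6164 on high fat diet and 1710 to 4403 on chow, and none was at 0 (lowest mean intensity 75.9). Of 6 tested T, NK and B cell markers 3 rose (summed intensity 665 to 1022 on high fat diet and 602 to 850 on chow), and of 6 stellate cell markers 3 rose (4228 to 6332 on high fat diet and 3795 to 5937 on chow). The sinusoidal endothelial list had 1 of 6 lower (2355 to 4490 on high fat diet and 2276 to 4736 on chow). Of 7 hepatocyte markers 3 fell and 0 rose. The part of these shifts in the differences of the purine genes was not tested. Of the remaining lists, 0 of 2 bile duct genes, 0 of 1 red blood cell gene, 1 of 2 adipose genes (Fabp4, 0.305) and 2 of 3 pancreas and gut genes (Fabp2, 1.25, and Cela1, 0.178) passed. Fabp2 was bright on chow too (mean log2 9.58), and Cpa1 of the same list did not pass (0.047, limma adjusted p = 0.634). Whether pancreas or gut tissue was present in the samples was not tested.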

How the data were processed

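RNA of 36 whole liver samples was hybridised to 1-colour Affymetrix arrays. The deposited values are linear intensities per probe set, made by the authors with Affymetrix Expression Console 1.1.1 and PLIER 2.0, per the submitters' processing notes; any further scaling between arrays is not given in the sources used here. Of 35556 probe sets, 21789 had 1 gene symbol, 1621 several and 12146 none listed. For 99.6% of the probe sets with 1 symbol the gene ID was found in RefSeq, whose symbol was used. The brightest probe set stood for each gene, 16 was added, log2 taken, and genes under the 30th percentile of mean level left out. An offset understates changes of dim genes. limma 3.58.1 in R 4.3.3 fitted 12 group means, and separately a 24 h wave per diet, with Benjamini-Hochberg adjustment over 13956 genes; it was tested on simulated data. Named genes of other lists were the smallest p in each direction per list, plus Urah; any other name was picked with its value in view. The members and lists were chosen with earlier results of these data known. Replicate numbers showed no clear pairing of the diets: over 18 same-number pairs at the same time, deviations correlated at -0.412 to 0.35, and 5 were over 0.1. With so few samples per group, this check cannot exclude partial pairing or a shared batch. No 2 arrays held identical values.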

Additional observations from a re-analysis of the deposited data

How the results depend on the processing

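Aprt's average fall held under all 56 alternatives run (-0.672 to -0.535, adjusted p at most 4.05e-06). The replicate block left 5 of the 7 genes called on average and 2954 of all genes, and changed no call of the 7; Aprt stood at -0.604 (adjusted p = 2.94e-11). The 4 arrays of lowest weight and the times left out were chosen after seeing the data. These arrays were chow ZT4 replicate 2, chow ZT20 replicate 3, high fat diet ZT20 replicate 2 and chow ZT16 replicate 1. The cause of the changes below was not tested.

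Only the larger changes in a count are listed here and in the next paragraph. Of the 7 genes, the average count of 5 became 3 with median centring, 1 against a 1.2-fold threshold, 3 without ZT4 and 3 without ZT0 and ZT4. Among the smaller changes, no filter gave 6 on average, as Ada was then tested and passed, and 3 at ZT4. At an adjusted p under 0.01 Gda lost its average call (limma adjusted p = 0.0117). The ZT0 count of 2 became 1 at an adjusted p under 0.01 and 1 with only that time's 6 arrays, and 1 to 2 leaving out single arrays. The ZT4 count of 4 became 2 with median centring, 2 at 0.01, 1 with 6 arrays and 2 without the 4 arrays, and 2 to 4 leaving out single arrays. The ZT12 count of 2 became 1 with median centring, no filter, 0.01 or 6 arrays, and 1 to 2 leaving out single arrays. Array weights gave 2 at ZT16 and 2 at ZT20, and quantile normalization 2 at ZT20, each against 1. At 0.01 Uox (adjusted p = 0.0138) was no longer called rhythmic on high fat diet. Uox passed on average with median centring (-0.112) and array weights (-0.0766, adjusted p = 0.0405).

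Over all genes, the average count of 2939 became 1815 at 0.01, 179 against a 1.2-fold threshold and 1660 without ZT0 and ZT4. At 0.01 the counts were 204 at ZT0, 221 at ZT4, 52 at ZT8, 296 at ZT12, 101 at ZT16 and 110 at ZT20, 2 for the difference in the wave, 854 for the wave on high fat diet and 1710 on chow. Array weights gave 1085 at ZT4, 1716 at ZT8, 1204 at ZT12, 1335 at ZT16 and 821 at ZT20, 144 for the difference and 4459 for the chow wave. Only 6 arrays gave 285 at ZT0, 230 at ZT4, 193 at ZT16 and 157 at ZT20. Median centring gave 1806 at ZT0 and 191 at ZT16. Without the 4 arrays there were 165 at ZT8, 142 at ZT20 and 1 for the difference, for which quantile normalization gave 11 and the test with no shape 88; that test gave 2340 on high fat diet. Leaving out single arrays gave 270 to 1143 at ZT0, 258 to 612 at ZT4, 54 to 129 at ZT8, 291 to 854 at ZT12, 96 to 363 at ZT16, 121 to 338 at ZT20 and 4 to 11 for the difference.

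Signs turned only for differences that did not pass the test. Median centring gave Adk -0.0302 at ZT0 and -0.00549 at ZT8, Hprt -0.00583 on average and Urad -0.00343 at ZT16. Array weights gave Adk -0.0181 at ZT8, Hprt -0.00384 on average and Xdh 0.0135 at ZT16, and quantile normalization Xdh 0.0218 at ZT12 and 0.0217 at ZT16. Without the 4 arrays Hprt was -0.00183 on average and Uox -0.0349 at ZT4, and Hprt was -0.00216 without ZT4 and -0.0418 without ZT0 and ZT4. Leaving out single arrays gave Adk -0.00301 to 0.0717 at ZT8, Hprt -0.0017 to 0.0525 on average, Gda -0.113 to 0.0387 at ZT20, Xdh -0.0791 to 0.0364 at ZT12, -0.0476 to 0.0796 at ZT16 and -0.01 to 0.0999 at ZT20, and Uox -0.0428 to 0.0153 at ZT0, -0.0349 to 0.0782 at ZT4, -0.115 to 0.0125 at ZT8 and -0.0602 to 0.0025 at ZT16.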
